A study of Rattus norvegicus with 13 samples.

Results

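The dopamine genes described here are the 8 genes of dopamine synthesis, storage, uptake and autoreception, Th, Ddc, Gch1, Slc18a2, Slc6a3, Drd2, Aldh1a1 and Slc10a4, out of 17366 rows of an expression table from whole rat hypothalamus. They were taken by gene symbol, each symbol had a row of its own, and all 8 passed the filter on low values, which asked for an average of 0.5 FPKM or more across the 13 rats. The set was chosen because its genes were already known to differ between the 2 diets of the study, so every difference between diets in the 8 genes is a description and carries no test. What the choice did not use is how the genes varied between rats that ate the same diet, and that is tested below.

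The study asked how a high-fructose diet around adolescence affects the hypothalamic transcriptome. The 6 fructose rats ate a diet with 55% fructose and the 7 chow rats a standard chow with 0.30% fructose, both from postnatal day 25. All rats were pair-housed and fasted from day 79, and tissue was taken on day 80, 1 h after glucose (2 g/kg) or saline was injected into the peritoneum. The sources used here do not give the injection, strain, sex, cage or batch of each sequenced rat, and no transgene or deletion is named. Each library came from 1 rat, and levels are in FPKM, mapped fragments scaled by transcript length and by the size of the library, so that genes can be compared per length.

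Total FPKM per rat lay between 556902 and 608058, and the number of reads behind each value is unknown. Of the 19 genes chosen to mark the hypothalamus, 18 were above 0 in at least 1 rat, Npy being listed at 0 in all 13 rats. Their summed level was 1800 to 7665 FPKM in fructose rats and 4367 to 10212 FPKM in chow rats. Most of it was Pmch, which averaged 3494 FPKM on fructose and 5107 FPKM on chow. Of the 17 tested genes 0 passed, with 2 at an unadjusted p under 0.05 (limma), Pmch lower and Kiss1 higher on fructose. Kiss1 averaged 1.16 FPKM on fructose and 0.258 FPKM on chow and passed the filter only through the fructose rats. Among all 11837 genes tested for diet (limma on log2(FPKM + 0.5), Benjamini-Hochberg adjusted p under 0.05), 3.94% passed, of which 1.66% were higher and 2.27% lower on fructose, as shares of all genes tested.

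Dopamine is made by a pair of enzymes in sequence, tyrosine to L-DOPA by tyrosine hydroxylase (Th) and L-DOPA to dopamine by aromatic L-amino acid decarboxylase (Ddc). Th needs the cofactor tetrahydrobiopterin, whose synthesis begins with GTP cyclohydrolase (Gch1). The vesicular transporter VMAT2 (Slc18a2) loads dopamine into vesicles, the dopamine transporter (Slc6a3) takes it back from the synaptic cleft, and the D2 receptor (Drd2) acts as an autoreceptor on dopamine neurons and as a receptor on their targets. Dopamine neurons lie in the arcuate nucleus and other parts of the hypothalamus, where some of them inhibit prolactin release. They also lie in large numbers in the ventral midbrain, which lies just behind the hypothalamus. Ddc and Slc18a2 are also expressed in serotonin, histamine and noradrenaline neurons.

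All 8 genes had a higher mean in fructose rats than in chow rats, and in 7 of the 8 every fructose rat lay above every chow rat. Over all genes tested 0.879% were separated in this way with fructose above and 0.727% with fructose below, and since this contrast chose the genes, nothing is read from the count. The median log2 difference of the 8 genes was 1.39, against 0.00 over all genes tested. The size of the difference spread widely over the set, with Slc6a3 at the top and Drd2 and Gch1 at the bottom. In RNA from a whole tissue block, more cells of a type and more RNA per cell cannot be told apart.

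**Figure D1:**
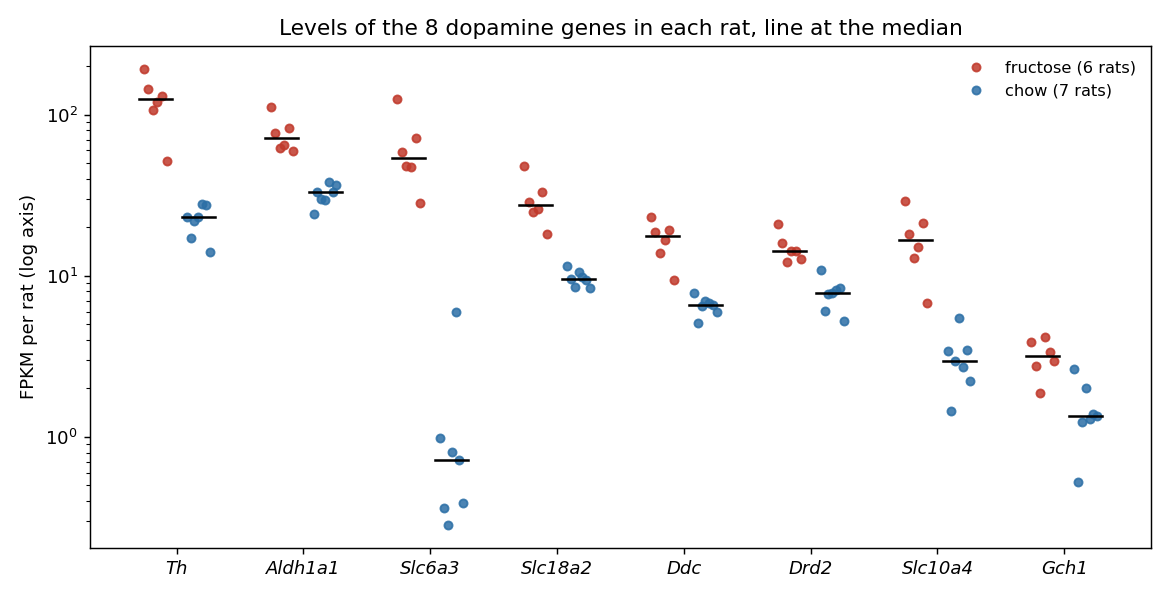
Level of each gene in each rat, in FPKM on a log axis, with fructose rats (red) left of chow rats (blue) and a line at the median of each diet. The diets are apart in 7 genes and overlap in Gch1, where 5 of 6 fructose rats lie above all chow rats, and 1 chow rat stands above the other 6 in Slc6a3.

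Th, the rate-limiting enzyme, was the most abundant of the 8 genes in fructose rats. It lay between 51.9 and 193 FPKM with a median of 126 FPKM in fructose rats, against 14.1 to 27.8 FPKM with a median of 23.0 FPKM in chow rats. The mean was 125 ± 46.4 FPKM (SD, n = 6) on fructose and 22.1 ± 5.03 FPKM (SD, n = 7) on chow, a log2 difference of 2.40 ± 0.24 (SE). Fructose replicate 6 was the lowest fructose rat and still 1.87 times the highest chow rat. Ddc, the second enzyme, differed by less, at 9.47 to 23.2 FPKM with a median of 17.8 FPKM in fructose rats and 5.07 to 7.79 FPKM with a median of 6.57 FPKM in chow rats. Its log2 difference was 1.26 ± 0.16 (SE), and the lowest fructose rat stood at 1.22 times the highest chow rat.

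Gch1, the enzyme of the cofactor, had the lowest mean level of the 8 genes in fructose rats. It ranged from 1.88 to 4.15 FPKM with a median of 3.16 FPKM in fructose rats, and from 0.526 to 2.63 FPKM with a median of 1.35 FPKM in chow rats. This was the gene in which the diets overlapped, because fructose replicate 3 lay below chow replicates 1 and 4. Its log2 difference of 0.92 ± 0.22 (SE) had, of the 8 genes, the largest error for its size.

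Slc18a2, which loads vesicles, lay between 18.1 and 48.3 FPKM with a median of 27.5 FPKM in fructose rats and between 8.40 and 11.6 FPKM with a median of 9.53 FPKM in chow rats. Its log2 difference was 1.52 ± 0.16 (SE), and the chow rats differed among themselves by no more than 1.38-fold. Slc10a4, an orphan carrier of the vesicles of monoamine and cholinergic neurons, lay between 6.74 and 29.1 FPKM with a median of 16.7 FPKM in fructose rats and between 1.45 and 5.45 FPKM with a median of 2.95 FPKM in chow rats, a log2 difference of 2.25 ± 0.29 (SE). The difference of Slc10a4 was near that of Th in size. Its level was near that of Ddc on fructose only, where Slc10a4 exceeded Ddc in 2 of 6 rats, while on chow Ddc exceeded Slc10a4 in 7 of 7.

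Slc6a3, the uptake transporter that many hypothalamic dopamine neurons hold at low levels, had the widest difference of the 8 genes. It lay between 28.3 and 125 FPKM with a median of 53.6 FPKM in fructose rats, and between 0.285 and 5.95 FPKM with a median of 0.721 FPKM in chow rats. The mean was 63.4 ± 33.6 FPKM (SD, n = 6) on fructose and 1.36 ± 2.04 FPKM (SD, n = 7) on chow, where the SD exceeded the mean because of chow replicate 5. Without that rat the chow mean was 0.591 ± 0.283 FPKM (SD, n = 6) with a highest value of 0.978 FPKM, and the ratio of the means was 107 in place of 46.7. The log2 difference was 5.39 ± 0.43 (SE) over all rats and 5.76 without chow replicate 5. It was 6.01 with a pseudocount of 0.1 and 4.90 with a pseudocount of 1.

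Chow replicate 5 was not set apart in the other genes of the set in the same way. It was the highest chow rat in Th (27.8 FPKM) and Aldh1a1 (38.2 FPKM), and it lay within the range of the other chow rats in the remaining 5 genes. Of 13 matched marker genes of midbrain dopamine neurons, 5 were highest among the chow rats in this rat, namely Chrna5, Nr4a2, Lmx1a, Foxa1 and Foxa2. Of the others, Chrna6 and Ret ranked 2 and Chrnb3 ranked 3 among the 7 chow rats. Ntsr1 and Anxa1 ranked 4, Sncg ranked 5, and Pitx3 and Gucy2c were at 0 FPKM in this rat. Nr4a2, a nuclear receptor that dopamine neurons need, stood at 7.85 FPKM there and at up to 7.50 FPKM in the other chow rats.

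Drd2, the receptor, ranged from 12.1 to 20.9 FPKM with a median of 14.2 FPKM in fructose rats and from 5.27 to 10.9 FPKM with a median of 7.82 FPKM in chow rats, a log2 difference of 0.92 ± 0.15 (SE). The gap was narrow, with the lowest fructose rat at 1.11 times the highest chow rat, chow replicate 1. Aldh1a1, an aldehyde dehydrogenase of a ventral group of midbrain dopamine neurons that is also found in other cells, ranged from 59.9 to 111 FPKM with a median of 71.4 FPKM in fructose rats and from 24.1 to 38.2 FPKM with a median of 33.3 FPKM in chow rats. It was the most abundant of the 8 genes on chow, and its log2 difference was 1.22 ± 0.14 (SE).

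The order of the levels per length differed between the diets. From high to low it ran Th, Aldh1a1, Slc6a3, Slc18a2, Slc10a4, Ddc, Drd2, Gch1 on fructose and Aldh1a1, Th, Slc18a2, Drd2, Ddc, Slc10a4, Gch1, Slc6a3 on chow. Th stood above Aldh1a1 in 5 of 6 fructose rats and below it in 7 of 7 chow rats. Slc6a3, in place 3 on fructose and last on chow, exceeded Slc18a2 in 6 of 6 fructose rats, while Gch1 exceeded Slc6a3 in 6 of 7 chow rats. Neighbours that did not keep their order in every rat were Th with Aldh1a1, Aldh1a1 with Slc6a3, Slc10a4 with Ddc and Ddc with Drd2 on fructose, and Drd2 with Ddc and Gch1 with Slc6a3 on chow.

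Because the genes differed by unequal factors, their ratios within a rat differed between the diets. Ddc was 0.120 to 0.182 times Th in fructose rats with a median of 0.135, and 0.239 to 0.425 times Th in chow rats with a median of 0.294. Drd2 was 0.108 to 0.245 times Th in fructose rats with a median of 0.112, against 0.293 to 0.472 in chow rats with a median of 0.351. In both ratios every fructose rat lay below every chow rat. Slc6a3 went the other way, with 0.394 to 0.649 FPKM per FPKM of Th in fructose rats and 0.0129 to 0.214 in chow rats, the medians being 0.499 and 0.0277. Every fructose rat lay above every chow rat in this ratio, chow replicate 5 included.

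The ratio of Slc10a4 to Th was the exception, with 0.122 to 0.161 in fructose rats and 0.0842 to 0.236 in chow rats. The medians were 0.128 on fructose and 0.134 on chow, and the fructose rats lay wholly inside the range of the chow rats. Slc18a2 over Th was lower than all chow rats in 5 of 6 fructose rats and Aldh1a1 over Th likewise in 5 of 6, with medians of 0.241 and 0.580 on fructose against 0.458 and 1.37 on chow. In fructose replicate 6, where Th was lowest, both ratios fell inside the chow range, at 0.348 for Slc18a2 and 1.15 for Aldh1a1. The storage and decarboxylase genes kept a near ratio to each other, Slc18a2 over Ddc being 1.54 to 2.08 in fructose rats and 1.32 to 1.88 in chow rats.

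**Figure D2:**
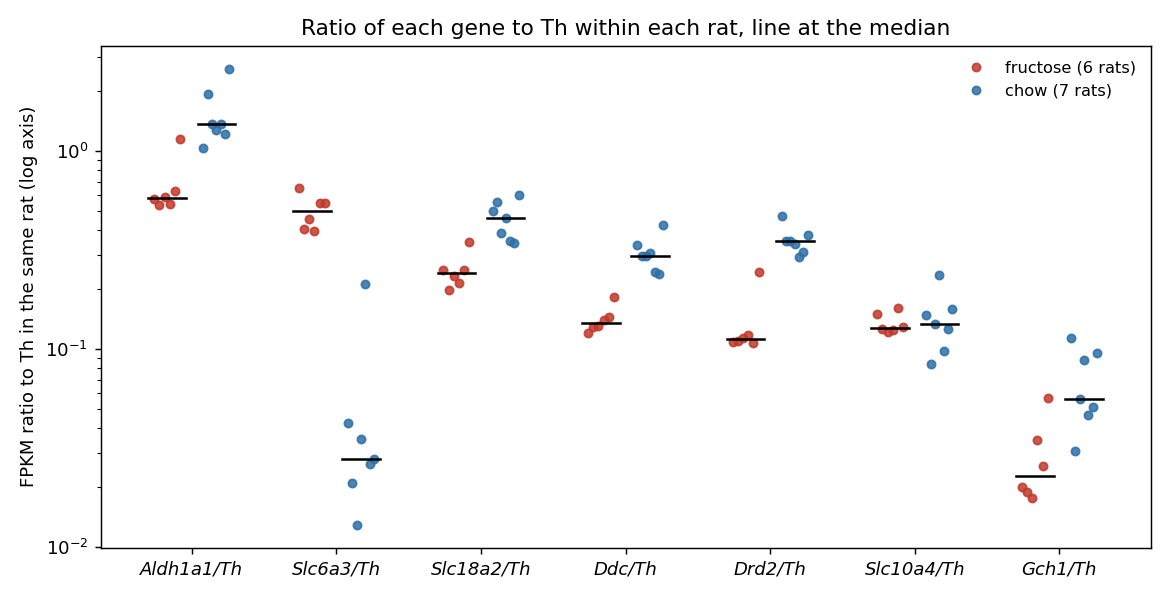
Ratio of the FPKM of each gene to the FPKM of Th in the same rat, on a log axis, with fructose rats (red) left of chow rats (blue) and a line at the median. Slc6a3 per Th is higher in all 6 fructose rats, Ddc and Drd2 per Th are lower in all 6, and Slc10a4 per Th overlaps, with medians of 0.128 on fructose and 0.134 on chow.

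Within the fructose group the 8 genes did not vary alike in size. Slc6a3 varied 4.43-fold between its lowest and highest fructose rat, Slc10a4 4.31-fold and Th 3.72-fold, against 1.72-fold for Drd2 and 1.85-fold for Aldh1a1. The median SD of log2(FPKM + 0.5) over the 8 genes was 0.45 on fructose and 0.33 on chow, while over all genes tested it was 0.15 on both diets. Fructose replicate 1 was the highest fructose rat in 7 of the 8 genes, Gch1 being the exception, and fructose replicate 6 was the lowest in 6, with replicate 3 the lowest in Gch1 and Drd2.

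The genes varied together from rat to rat within the fructose group. Pearson r of log2(FPKM + 0.5) over the 6 fructose rats was positive for all 28 pairs, with a median of 0.87 and a range of 0.31 to 0.998, and the median Spearman rho was 0.91. After Benjamini-Hochberg adjustment over the 56 tests of 28 pairs in 2 diets (exact two-sided permutation over pairings), 8 fructose pairs passed by Pearson r and 6 by Spearman rho, and 17 and 16 had an unadjusted p under 0.05. For scale, r of Th with 11835 other genes over the same rats had a median of 0.00, with the 5th and 95th percentile at -0.71 and 0.76. Points share the library of each rat. Read depth is unknown, and its part in these values of r was not tested.

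**Figure D3:**
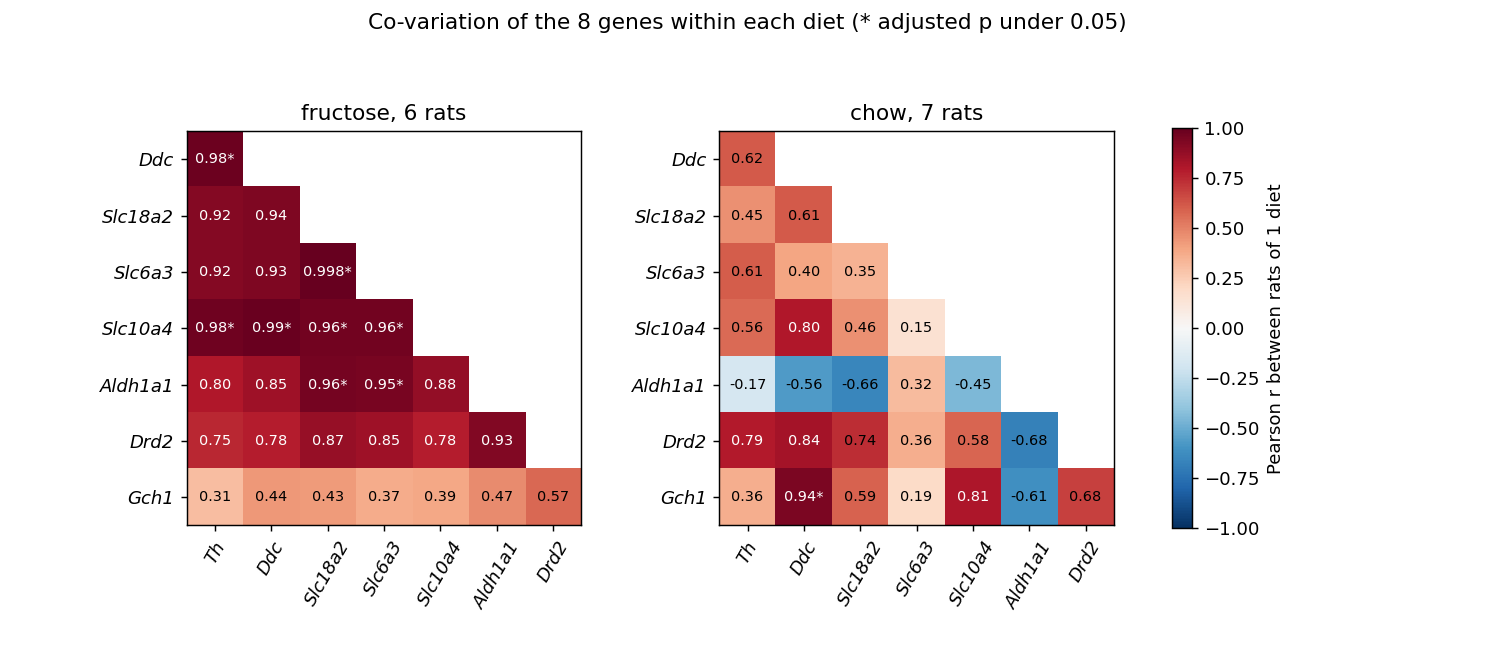
Pearson r of log2(FPKM + 0.5) for each pair of genes, over the 6 fructose rats (left) and the 7 chow rats (right), with colour from -1 (blue) to 1 (red) and an asterisk at an adjusted p under 0.05. All 28 pairs are positive on fructose, with Gch1 weakest, whereas Aldh1a1 is negative with 6 of the other 7 genes on chow.

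By Pearson r the closest pair was the vesicular and the plasma membrane transporter, whereas by Spearman rho 6 other pairs stood at 1. Slc18a2 and Slc6a3 gave r = 0.998 and rho = 0.94 over the 6 fructose rats (exact permutation p = 0.00278 and 0.0167, adjusted p = 0.0259 and 0.0667), and r was 0.98 without the 2 rats farthest from the median of Slc18a2. Th and Ddc, the enzymes in sequence, gave r = 0.98 and rho = 0.94 (exact permutation p = 0.00278 and 0.0167, adjusted p = 0.0259 and 0.0667), and r was 0.92 without the 2 farthest rats. Ddc and Slc10a4 gave r = 0.99 and rho = 1 (exact permutation p = 0.00139 and 0.00278, adjusted p = 0.0259 for both, n = 6), with r = 0.94 without the 2 farthest rats. The p of 0.00139 is the smallest that 6 rats allow. Over the 56 tests it is too large for a fructose pair to pass alone. The fructose pairs passed because several had a small p together, and these pairs share genes.

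The other 5 pairs past the threshold by r on fructose were Slc10a4 with Th, Slc18a2 and Slc6a3, and Aldh1a1 with Slc18a2 and Slc6a3, at r between 0.95 and 0.98 (exact permutation, adjusted p between 0.0259 and 0.0432). Without the 2 farthest rats, set anew for each pair, these 5 stood at r between 0.82 and 0.98. Gch1 stood apart, with r between 0.31 and 0.57 to the other 7 genes and 0 pairs past the threshold. With any 1 of the 6 fructose rats left out, 0 fructose pairs passed after adjustment, and 11 to 14 had an unadjusted p under 0.05. The smallest p that 5 rats allow is 0.00833, which is too large for a fructose pair to pass alone, by a wider margin than with 6 rats. The count of 0 in those fits therefore says little about the pairs. The median r in those fits was 0.79 without fructose replicate 1 and between 0.88 and 0.92 without each of the other 5 rats.

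**Figure D4:**
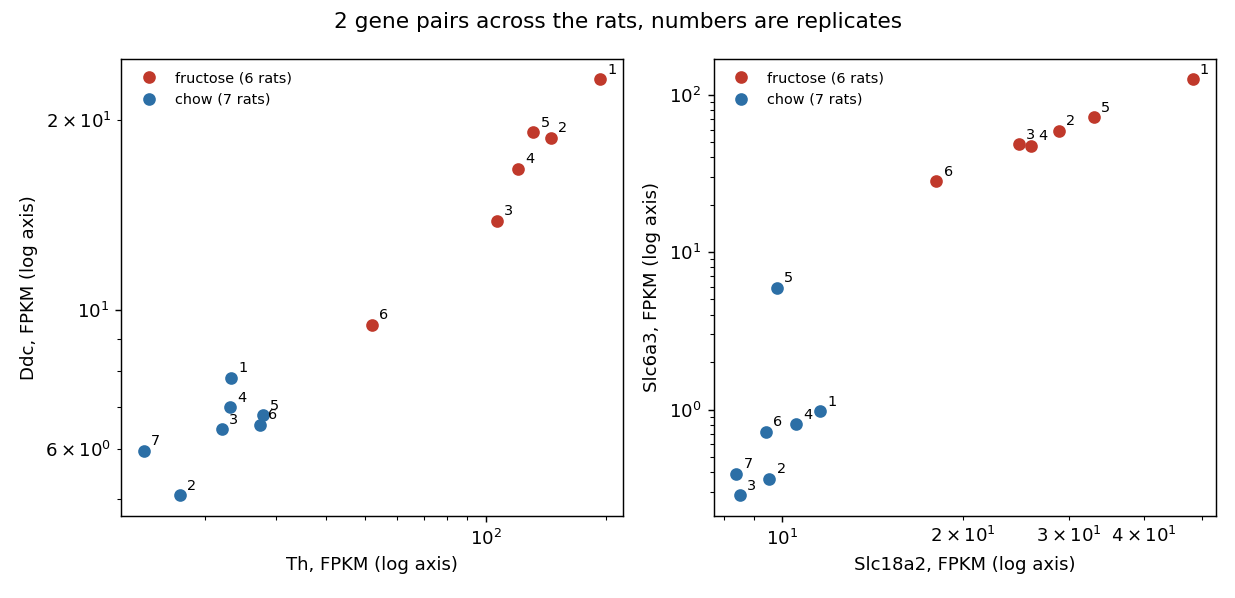
Levels of Ddc against Th (left) and of Slc6a3 against Slc18a2 (right) in each rat, in FPKM on log axes, fructose in red and chow in blue, with replicate numbers beside the points. The 6 fructose rats lie along a line in both panels (r = 0.98 and 0.998), from replicate 6 at the low end to replicate 1 at the high end, and chow replicate 5 stands above the other chow rats in Slc6a3.

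In the chow group the genes were less uniform. The 28 pairs had a median r of 0.45 and a range of -0.68 to 0.94 over the 7 chow rats, and 22 of them were positive. After adjustment 1 pair passed by Pearson r and 0 by Spearman rho, with 5 at an unadjusted p under 0.05 by each measure (exact permutation). That pair was Ddc with Gch1 (r = 0.94 and rho = 0.82, exact permutation p = 0.00575 and 0.0341, adjusted p = 0.0432 and 0.101, n = 7), and r was 0.57 without the 2 farthest rats. It no longer passed without chow replicate 1 (adjusted p = 0.0729), 2 (0.0729), 4 (0.119) or 6 (0.0700), nor with any fructose rat left out (0.0848 to 0.104), which changes the adjustment but not r.

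Aldh1a1 stood apart on chow. Over the chow rats its r was negative with 6 of the other 7 genes, down to -0.68 with Drd2 (rho = -0.46, exact permutation p = 0.0976 and 0.302, adjusted p = 0.195 and 0.376, n = 7), while with Slc6a3 it was 0.32. These signs depended on few rats. The 2 farthest rats were set by the median of the other gene, or of Aldh1a1 itself for the pair with Slc10a4. The rats left out thus differed between pairs. Without the 2 farthest rats r was 0.07 with Drd2, 0.09 with Slc18a2 and 0.74 with Th. It was then -0.38 with Ddc, -0.52 with Gch1, -0.63 with Slc10a4 and -0.84 with Slc6a3. Over the fructose rats the r of Aldh1a1 with the same Drd2 was 0.93 (rho = 0.77, exact permutation p = 0.0167 and 0.103, adjusted p = 0.0778 and 0.186, n = 6). The difference in r between diets was not tested, and none of the negative pairs passed. Slc6a3 on chow had r between 0.15 and 0.61 with the other genes, values that include chow replicate 5.

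Sequences just before the start sites of 3 genes are shown because Th, Slc18a2 and Slc6a3 make, store and take up dopamine and were among the genes that varied together over the fructose rats. They are 250 bases long, from RefSeq on build GRCr8, which is not the build of the expression values (rn5), and are written 5′ to 3′ on the strand of the gene. Capitals mark matches to the cAMP response element TGACGTCA or the AP-1 element TGANTCA. The Th sequence is chr1:207508219-207508468 on the minus strand, that of Slc18a2 chr1:268399771-268400020 on the plus strand and that of Slc6a3 chr1:31578963-31579212 on the minus strand.
Th: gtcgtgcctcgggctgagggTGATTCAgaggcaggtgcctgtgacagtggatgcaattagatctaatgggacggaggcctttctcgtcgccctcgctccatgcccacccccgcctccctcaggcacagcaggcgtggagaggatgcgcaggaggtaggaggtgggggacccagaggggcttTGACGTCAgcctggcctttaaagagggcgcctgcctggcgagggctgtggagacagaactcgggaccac
Slc18a2: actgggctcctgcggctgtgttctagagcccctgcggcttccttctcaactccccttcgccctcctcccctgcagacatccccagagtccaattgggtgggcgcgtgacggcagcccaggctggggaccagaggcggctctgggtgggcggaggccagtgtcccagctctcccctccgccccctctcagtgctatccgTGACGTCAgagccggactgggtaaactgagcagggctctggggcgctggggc
Slc6a3: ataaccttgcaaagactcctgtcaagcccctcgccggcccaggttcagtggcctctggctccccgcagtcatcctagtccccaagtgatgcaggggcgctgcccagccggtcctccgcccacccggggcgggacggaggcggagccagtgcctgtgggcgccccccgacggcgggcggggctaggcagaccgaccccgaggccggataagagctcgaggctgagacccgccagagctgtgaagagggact

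The search covered windows from 250 bases before to 50 bases after each start site, on both strands, with Th, Gch1, Slc18a2, Slc6a3, Drd2, Aldh1a1 and Slc10a4 holding 1 window each and Ddc 3. The cAMP response element TGACGTCA was found in 2 of the 8 genes, Th at 69 and Slc18a2 at 52 bases before the start, counted to its first base, and in 1.83% of all 33469 windows. The AP-1 element TGANTCA was found in Th and Ddc and in 7.33% of all windows. The element AAAGGTCA, which Nr4a2 binds, was found in 1 Ddc window, where it overlaps a match to TATAAA, and in 1.43% of all windows. The element TAATCC, which Pitx3 binds, was in 0 of the 8 genes and in 7.17% of all windows, and TATAAA in 1 of the 8 genes and in 14.2% of all windows. A match is a string of letters, not a bound site, and the window of Slc6a3 held none of the 5 elements.

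The rest of the dopamine pathway was read from the same fit. Of 46 further genes for cofactor recycling, synthesis of other amines, breakdown, transport, receptors and signalling, 35 were tested, of which 2 were higher on fructose, 2 lower and 31 did not pass (limma, adjusted p under 0.05). The share called was 11.4%, against 3.94% over all genes tested. The median log2 difference of the 35 was 0.03, against 0.00 over all genes tested, and 6 were higher and 8 lower at an unadjusted p under 0.05. The 6 tested genes that make or recycle tetrahydrobiopterin beside Gch1 did not pass, with 0 at an unadjusted p under 0.05. Among them Qdpr, dihydropteridine reductase, averaged 543 ± 63.2 FPKM (SD, n = 6) on fructose and 531 ± 55.2 FPKM (SD, n = 7) on chow.

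Of the 6 genes of dopamine breakdown, 1 rose and 5 did not pass. Aldh2, the mitochondrial aldehyde dehydrogenase, averaged 48.8 ± 3.48 FPKM (SD, n = 6) on fructose and 40.2 ± 2.37 FPKM (SD, n = 7) on chow, and the 6 fructose rats lay wholly above the 7 chow rats (log2 difference 0.27 ± 0.05 SE, limma adjusted p = 0.0214). The call was lost without fructose replicate 6 (adjusted p = 0.0503). Maoa, monoamine oxidase A, which degrades dopamine, stood at a log2 difference of 0.03 ± 0.06 (SE).

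Of the 4 tested transport genes Slc22a3 fell and 3 did not pass. Slc22a3, a low-affinity transporter that takes up monoamines into non-neuronal cells, averaged 1.98 ± 0.534 FPKM (SD, n = 6) on fructose and 3.67 ± 0.794 FPKM (SD, n = 7) on chow, a log2 difference of -0.75 ± 0.15 (SE, limma adjusted p = 0.0249), with 5 of 6 fructose rats below all chow rats. The call was lost without chow replicate 2 (adjusted p = 0.0541), chow replicate 4 (0.0517), fructose replicate 4 (0.0629) or fructose replicate 6 (0.0563), and with no filter on low values (0.0585). The other vesicular transporter gene Slc18a1 stood at 2.18 ± 0.601 FPKM (SD, n = 6) on fructose and 1.33 ± 0.671 FPKM (SD, n = 7) on chow (adjusted p = 0.218).

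Neither of the 2 tested dopamine receptor genes other than Drd2 passed. Drd1, the main D1-type receptor, averaged 2.72 ± 0.612 FPKM (SD, n = 6) on fructose and 4.03 ± 1.14 FPKM (SD, n = 7) on chow (log2 difference -0.47 ± 0.17 SE, limma adjusted p = 0.127), and Drd5 stood at 0.15 ± 0.23 (SE). Among 15 genes of signalling below the receptors 1 rose, 1 fell and 13 did not pass. Ppp1r1b, DARPP-32, a phosphatase inhibitor that dopamine regulates through cAMP, averaged 52.1 ± 8.50 FPKM (SD, n = 6) on fructose and 37.0 ± 2.73 FPKM (SD, n = 7) on chow (0.47 ± 0.09 SE, limma adjusted p = 0.0205), a call kept in all 13 fits with 1 rat left out and lost with no filter on low values (adjusted p = 0.0555).

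Ppp1r9b, spinophilin, which anchors protein phosphatase 1 in dendritic spines, averaged 101 ± 17.3 FPKM (SD, n = 6) on fructose and 141 ± 26.0 FPKM (SD, n = 7) on chow (log2 difference -0.47 ± 0.13 SE, limma adjusted p = 0.0496). The call on Ppp1r9b was kept only without chow replicate 1 (adjusted p = 0.0119) or fructose replicate 5 (0.0244), and lay between 0.0551 and 0.118 without each of the other 11 rats, namely chow replicates 2 to 7 and fructose replicates 1, 2, 3, 4 and 6. It was also lost with no filter on low values (0.130), with a pseudocount of 0.1 (0.0507) and with quantile normalization (0.0543) or median-ratio scaling (0.0513), and in the robust fit (0.0520).

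**Figure D5:**
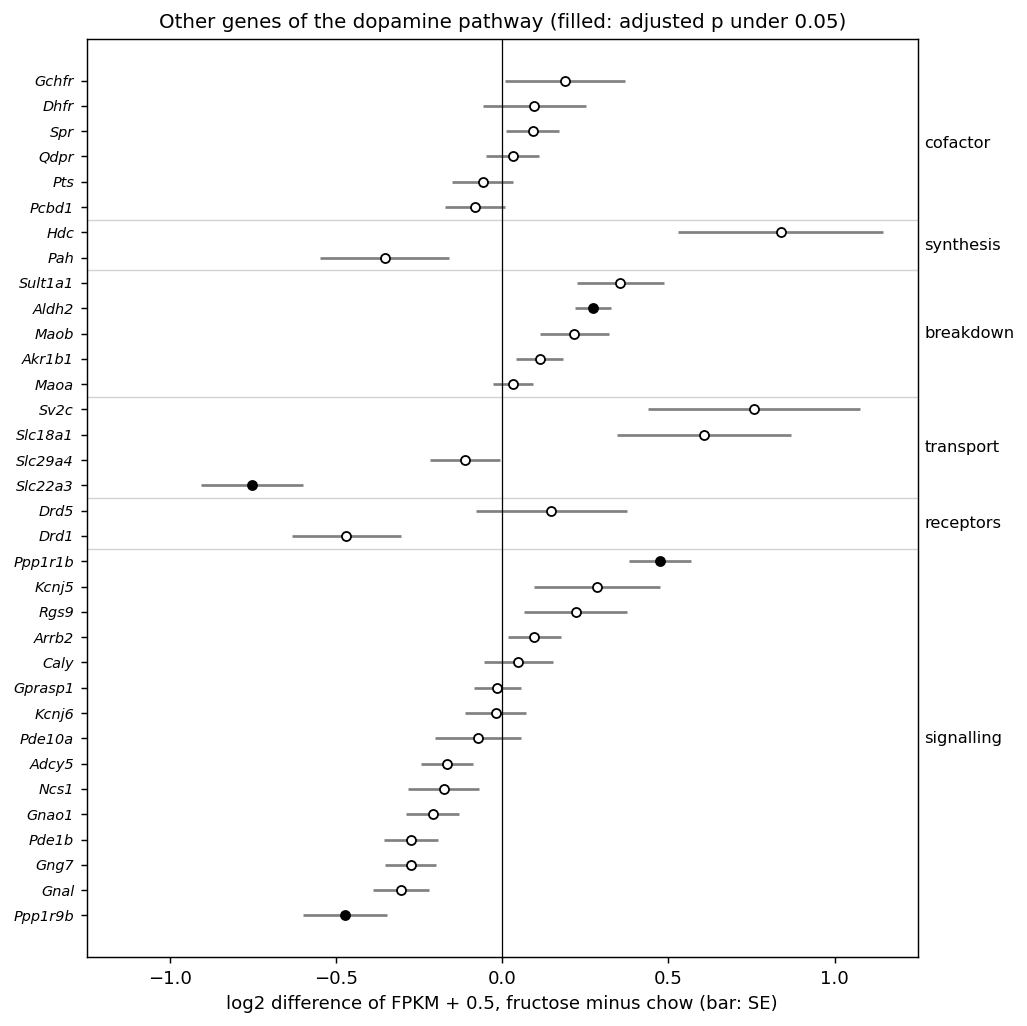
Log2 difference of FPKM + 0.5, fructose minus chow, with its SE, for tested genes of the dopamine pathway outside the set, grouped by role. Filled points have a limma adjusted p under 0.05, and they are Aldh2 and Ppp1r1b above 0 and Slc22a3 and Ppp1r9b below 0.

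Markers of other cells that hold these genes were read in the same rats. The 3 matched noradrenaline genes, Dbh, Slc6a2 and Phox2a, summed to at most 0.207 FPKM in any fructose rat and 0.242 FPKM in any chow rat, and the 3 serotonin genes, Tph2, Slc6a4 and Fev, to at most 0.566 FPKM on fructose and 0.605 FPKM on chow. The histamine genes Hdc, Hnmt and Maob summed to 46.7 to 77.9 FPKM in fructose rats and 46.1 to 66.8 FPKM in chow rats. Of the 3 genes 0 passed, with 1, Hdc, at an unadjusted p under 0.05 (limma). Most of the sum was Maob, which averaged 45.2 FPKM on fructose and 38.7 FPKM on chow. Hdc averaged 11.3 FPKM on fructose and 5.57 FPKM on chow, and 4 of 6 fructose rats exceeded the highest chow value. Hnmt averaged 7.65 FPKM on fructose and 7.58 FPKM on chow. In the pituitary list Prl and Pou1f1 were listed at 0 in all rats, and 0 of 3 tested genes passed, with 0 at an unadjusted p under 0.05.

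Markers of midbrain dopamine neurons moved with the set. Of 15 listed genes 13 were matched and 12 tested, 11 rose, and Lmx1a missed the threshold. Of the 13, 0 were listed at 0 in all rats, and their summed level was 103 to 186 FPKM in fructose rats and 52.8 to 71.5 FPKM in chow rats. Chrnb3, Chrna5, Pitx3 and Foxa2 averaged 2.00 to 3.20 FPKM on fructose and 0.0819 to 0.248 FPKM on chow and passed the filter on low values only through the fructose rats, so that their rise was partly fixed by the filter. Of the 8 genes above the filter on both diets 7 rose. With no filter 7 genes rose. With 1 rat left out 7 to 11 rose, with the low of 7 in the 5 fits that lacked chow replicate 2, chow replicate 4, fructose replicate 3, fructose replicate 4 and fructose replicate 6 in turn. This list was made with earlier results of these data known, so its count is no independent evidence. Markers of midbrain neurons outside the dopamine neurons summed to 5.95 to 11.7 FPKM in fructose rats and 3.69 to 6.19 FPKM in chow rats. Of 4 tested genes 1, Sox14, rose, and 4 were higher at an unadjusted p under 0.05 (limma). Gata3, at 1.11 FPKM on fructose and 0.327 FPKM on chow, passed the filter only through the fructose rats. En2, which was not tested, averaged 0.878 FPKM on fructose and 0.0711 FPKM on chow. Its lowest fructose value was 0.243 FPKM and its highest chow value 0.177 FPKM. Pax7, also not tested, averaged 0.245 FPKM on fructose and 0.214 FPKM on chow, with overlapping ranges. Sox14 averaged 1.08 FPKM on fructose and 0.448 FPKM on chow, so it too passed the filter only through the fructose rats, and its call, with 1 rat left out, was kept only in the fits lacking fructose replicate 1, fructose replicate 5 and chow replicate 1. Of 8 listed genes of hypothalamic dopamine neurons 7 were tested and did not pass, with 2 lower at an unadjusted p under 0.05, and their sum was 17.8 to 44.9 FPKM on fructose and 27.9 to 66.2 FPKM on chow.

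Other tissue markers moved as well. Thalamus markers summed to 66.5 to 389 FPKM in fructose rats and 195 to 798 FPKM in chow rats, and 5 of 9 fell, a count of 1 to 8 with 1 rat left out and 0 with no filter on low values (limma, 8 of them at an unadjusted p under 0.05). Red cell markers summed to 494 to 2215 FPKM in fructose rats and 238 to 615 FPKM in chow rats, and 4 of 4 tested rose, also with each rat left out in turn. Alas2 averaged 2.48 FPKM on fructose and 0.421 FPKM on chow and passed the filter only through the fructose rats. Meningeal markers summed to 26.8 to 75.5 FPKM on fructose and 18.2 to 32.8 FPKM on chow, and 4 of 6 rose, a count of 0 to 5 with 1 rat left out and 0 with no filter (limma, 6 at an unadjusted p under 0.05). Striatal markers summed to 178 to 301 FPKM in fructose rats and 169 to 254 FPKM in chow rats, with 2 of 8 higher, Ppp1r1b and Tac1. Astrocyte markers summed to 794 to 1007 FPKM on fructose and 659 to 801 FPKM on chow, with 2 of 6 higher, Gfap and Aqp4. With 1 rat left out the striatal count was 1 to 2 and the astrocyte count 0 to 2, and with no filter both were 0 (limma, 2 striatal and 3 astrocyte genes higher at an unadjusted p under 0.05). Endothelial markers summed to 129 to 167 FPKM on fructose and 121 to 136 FPKM on chow, with 0 of 5 called and 2 at an unadjusted p under 0.05. The part of these groups in the levels of the 8 genes was not tested.

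Within a diet, the 8 genes were summarised per rat as the mean of their standardised log2 levels and compared with the level of each of 12 marker lists. None of the 24 relations passed after adjustment, by Pearson r or Spearman rho, and 1 and 2 had an unadjusted p under 0.05 (exact two-sided permutation, smallest adjusted p = 0.300 by r and 0.400 by rho). The relation below 0.05 by both was to the midbrain dopamine neuron list over the 6 fructose rats (r = 0.95 and rho = 0.94, exact permutation p = 0.0125 and 0.0167, adjusted p = 0.300 and 0.400), and its r was 0.59 without the 2 rats farthest from the median. Over the 7 chow rats r with the same list was 0.37 (rho = 0.32, exact permutation p = 0.391 and 0.498, adjusted p = 0.760 and 0.793). The other relation below 0.05 by rho was to the meningeal list on chow (r = -0.72 and rho = -0.79, exact permutation p = 0.0732 and 0.0480, adjusted p = 0.575 and 0.467, n = 7), and over the fructose rats r with that list was -0.06 (rho = -0.09, exact permutation p = 0.918 and 0.919, adjusted p = 0.965 and 1, n = 6). For the thalamus list r was 0.34 on fructose (rho = 0.43, exact permutation p = 0.526 and 0.419, adjusted p = 0.760 and 0.793, n = 6) and -0.72 on chow (rho = -0.68, exact permutation p = 0.0617 and 0.110, adjusted p = 0.575 and 0.467, n = 7).

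Genes outside the set with the most similar pattern from rat to rat were sought among 10060 genes that averaged 2 FPKM or more, by the smaller of the 2 within-diet values of r with that summary. They were Kctd9, a BTB domain protein (0.95 on fructose and 0.95 on chow), Gnpda1, glucosamine-6-phosphate deaminase (0.89 and 0.89), Serinc3 (0.92 and 0.87), the small GTPase Rab39a (0.93 and 0.87), the poly(A) polymerase Papd5 (0.91 and 0.86) and the importin-like Ranbp6 (0.86 and 0.93). None of these 6 passed in the diet contrast (limma adjusted p between 0.475 and 0.882). Kctd9, for example, averaged 14.3 ± 2.08 FPKM (SD, n = 6) on fructose and 13.6 ± 1.35 FPKM (SD, n = 7) on chow. They were picked as the best of many genes over few rats, so their r has no p.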

How the data were processed

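RNA of whole hypothalamus from 13 rats was measured, 6 on fructose and 7 on chow. The deposited values are FPKM, 1 column per rat; STAR 2.3.0e, Cufflinks 2.1.1, Cuffdiff and build rn5 are named per the submitters' processing notes, and the sources used here give no settings. Such values hold no read counts, so depth is unknown. From the spacing of low values, 1 read was worth 0.871 to 1.21 times its value in chow replicate 1. Only ratios within a fixed window around 1 were kept for this estimate. It therefore had to lie near 1 and cannot show a large difference in depth. Columns were matched by name, groups came from the labels, and replicate numbers only name rats.

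Levels were analysed as log2(FPKM + 0.5), which understates changes of low genes. The 11837 genes that averaged 0.5 FPKM or more entered a two-sided limma fit (limma 3.58.1, R 4.3.3) whose variance prior followed intensity, and Benjamini-Hochberg adjustment ran over all of them. The fit was tested on simulated data. Correlations used exact permutation over all pairings within a diet (Python 3.11.15, numpy 2.4.6). The summary of the 8 genes was the mean of their z-scores within the diet. Of 140 list symbols 135 were matched.

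Members and lists were chosen with earlier results of these data known. Named genes are the 8 members, the called genes of the further pathway lists (at most 3 per list), and the 6 with the most similar pattern; Maoa, Qdpr, Drd1, Drd5, Slc18a1 and marker genes were added as examples after their values were seen. Of the pathway genes, 1 is counted but not reported by name here. Promoters came from RefSeq (GRCr8). The limma p-values take the variation between rats as error, and those of the correlations are shares of permuted pairings of rats. Whether cage mates were independent is unknown. Alternatives were pseudocounts of 0.1 and 1, other filters and scalings, robust fits, array weights, and leaving out each rat.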

Additional observations from a re-analysis of the deposited data

Results flagged for a closer look

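Some values lay far from the rest of their diet, by Dixon's criterion at the 95% level, over 32 groups of values of which 5 met it. Chance alone meets it in about 1 of 20 groups. Slc6a3 in chow replicate 5 was 5.95 FPKM, and its ratio to Th in that rat was 0.214, both high against the other 6 chow rats. In fructose replicate 6, the rat with the lowest Th, the ratio to Th was high for Slc18a2 (0.348), Drd2 (0.245) and Aldh1a1 (1.15). These 3 ratios share the same Th value, so they are not separate observations.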

How the results depend on the processing

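The 8 log2 differences stayed positive and moved by less than the spread between rats in all 152 recomputed values. Leaving out 1 rat cannot move a difference by that much, and the filters leave it unchanged. The small moves in those fits were thus fixed in advance, and only the pseudocounts and scalings could have exceeded the spread. The fit with array weights was not among the 152. The 56 recomputed median ratios to Th also moved by less than their spread between rats. The number of genes past the threshold, 466, was 130 with no filter on low values, 1019 with array weights, and 83 to 859 with 1 rat left out. Of the further pathway genes, the 2 higher on fructose became 1 with no filter and 1 or 2 with 1 rat left out. The 2 lower on fructose became 1 with a pseudocount of 0.1, quantile normalization or median-ratio scaling, 0 with no filter, and 0 to 4 with 1 rat left out. With no filter 7 were lower at an unadjusted p under 0.05. The count of correlated pairs on fructose, 8, was 7 to 8 under other pseudocounts and scalings and 0 to 8 with 1 rat left out. It was 0 whenever a fructose rat was left out, where 5 rats allow no p low enough for a pair to pass alone. The 6 fructose rats of the main count do not allow it either, so the 8 pairs passed only together. The count on chow, 1, was 0 to 1 with 1 rat left out. Other causes were not tested. The 24 relations to marker lists gave 0 calls in every alternative run. With a fructose rat left out, no single relation over 5 rats could pass alone, so those runs say little. No paired analysis was possible because replicate numbers were given in accession order and pair nothing. Depth is unknown, so the counting error of the low chow values of Slc6a3 and Gch1 could not be computed.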
